A study of Mus musculus with 6 samples.

Results

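The Rab genes encode small membrane-bound GTPases, and 59 of them were read here out of 25978 genes measured in sorted tumour cells. Members were the protein-coding genes whose symbol is Rab followed by a number and at most a short suffix, so Rab-like genes and Rab regulators are not among them. All 59 such symbols of the mouse annotation GENCODE M21 were in the table. The choice used no measured value. A filter on low levels, explained below, left 52 for testing.

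The cells came from primary pancreatic tumours of KPCY mice on a C57BL/6 background, between 5 and 7 weeks of age, which carry the driver Pdx1-Cre, Trp53fl/fl and the reporter Rosa26LSL-YFP among their alleles. In this model Cre recombinase, driven by the pancreatic promoter Pdx1, removes Trp53 and switches on a yellow fluorescent protein (YFP) in cells of the pancreatic lineage. YFP-positive cells were split according to EpCAM, an adhesion molecule on epithelial surfaces, into EpCAM+ cells (3 libraries) and EpCAM- cells (3 libraries), and both groups carry every allele of the model. Pdx1-Cre also marks normal pancreas, so the sort by itself does not separate tumour cells from other pancreatic cells. The series is titled as a characterisation of epithelial and mesenchymal cells, and the comparison here asks which Rab genes differ between them.

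Rab proteins switch between a GTP-bound form, which sits on a membrane and recruits effectors, and a GDP-bound form, which a carrier protein extracts into the cytosol. Exchange factors load GTP, GTPase-activating proteins promote its hydrolysis, and each Rab is known for a particular set of compartments, so the Rab genes a cell expresses outline its trafficking routes. In exocrine pancreas and other polarised epithelia, Rab proteins carry zymogen granules and recycling endosomes to the apical surface.

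Values are normalised levels on the log2 scale deposited by the authors, a difference is EpCAM- minus EpCAM+ on that scale, and the sequencing depth behind them is unknown. Libraries of a group resembled each other, with Pearson correlations across tested genes of 0.977 to 0.989 within groups and 0.854 to 0.883 across groups. The 5 epithelial markers (Epcam, Cdh1, Krt8, Krt18 and Krt19) together took 0.956% to 1.05% of the back-transformed total in EpCAM+ libraries and 0.0851% to 0.181% in EpCAM- libraries, in the direction of the sort. Genes used as markers of other cell types also moved with the groups. Summed fibroblast markers took 0.0384%, 0.0034% and 0.0040% in EpCAM+ replicates 1 to 3 and 0.337%, 0.264% and 0.0622% in EpCAM- replicates 1 to 3, with 7 of 8 genes called higher. Leukocyte markers took 0.0149% to 0.0344% in EpCAM+ and 0.0024% to 0.0030% in EpCAM- libraries (7 of 7 lower), acinar markers 0.165% to 0.344% and 0.0011% to 0.0014% (6 of 6 lower), and islet markers 0.0073% to 0.0363% and 0.0003% to 0.0005% (7 of 7 lower). None of these markers was at or below 0 on the log2 scale in any library. Of the endothelial markers, 1 of 3 tested was called higher, and the 1 Schwann cell marker tested was not called. Whether these transcripts came from other cells or from the sorted tumour cells themselves cannot be told from bulk samples. The part of other cells in the Rab results was not tested except where a value is given, and in bulk samples fewer cells of a type and less RNA per cell cannot be told apart.

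The RNA level of the family as a whole was close in both groups, while its composition differed. The summed back-transformed level of all 59 genes was 0.303% to 0.329% of a library's total in EpCAM+ and 0.318% to 0.328% in EpCAM- cells, ranges that overlap. Of the 52 tested genes, 13 were higher and 12 lower in EpCAM- cells at a limma adjusted p under 0.05, and 27 were not called. That is 48.1% called, against 43.4% of all 15783 tested genes, of which 20.3% were higher and 23.1% lower, and 46.8% of the protein-coding genes among them. The median difference was 0.048 for the Rab genes and 0.0043 for all tested genes, and the median size of a difference 0.478 and 0.457. In the family, 28 of 52 differences were smaller than 0.5 either way, 53.8% against 52.9% of all tested genes. These shares lie near those of all tested genes, so they are no result about the family. Of the 52 tested members, 12 were called with a difference of at least 1 on the log2 scale, and 23.9% of all tested genes were. The groups did not overlap for 31 of 52 members (15 above, 16 below), against 56.3% of all tested genes. Without EpCAM+ replicate 1 and EpCAM- replicate 3, whose fibroblast markers stood apart from their groups, 6 were higher and 7 lower, in a fit left with fewer libraries. Of all 15783 tested genes, 1907 were then higher and 2462 lower, so the whole table also lost calls. With each library left out in turn, 9 to 12 Rab genes were higher and 11 to 12 lower, against 2134 to 3325 and 2853 to 3975 of all tested genes.

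**Figure D1:**
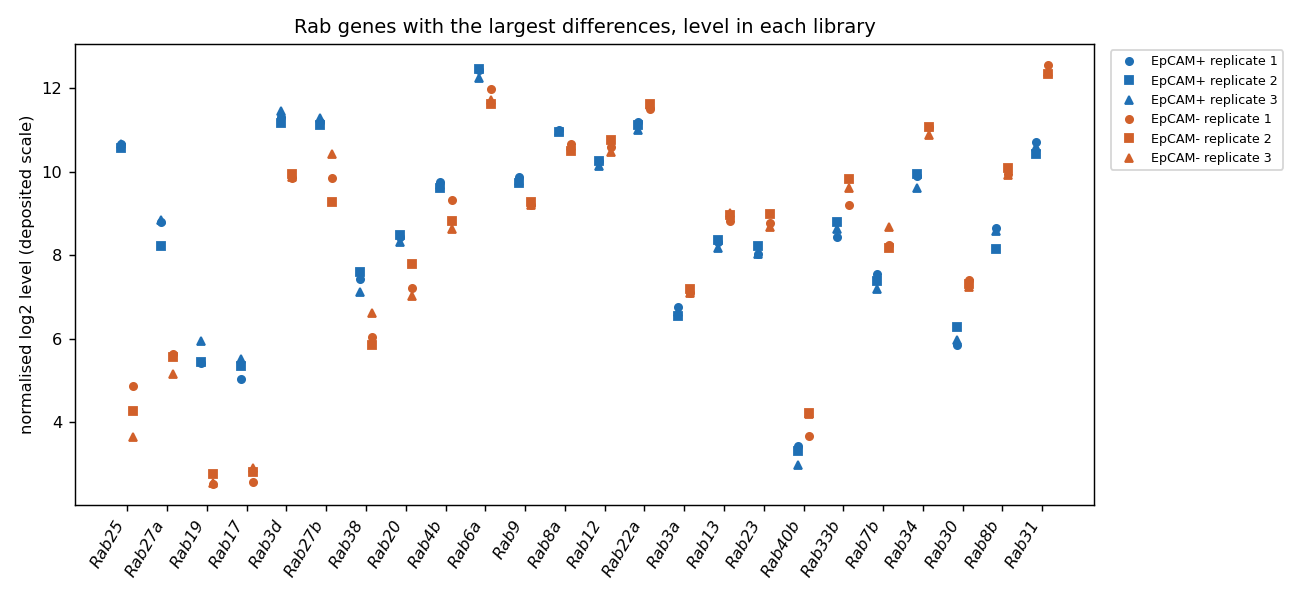
Normalised log2 level (vertical axis, deposited scale) of Rab genes with the largest called differences in each of the 6 libraries, ordered from the most decreased to the most increased in EpCAM- cells. Blue marks are EpCAM+ and orange marks EpCAM- libraries, with a circle, square or triangle for replicates 1, 2 and 3, and Rab25 shows the widest gap, from 10.58 or more to 4.86 or less.

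The most changed Rab genes are shown first by sequence, with matches to short motifs ahead of their transcription start. Promoters from RefSeq (GRCm38.p6) were matched by symbol for 48 of the 59 members, giving 60 promoters, and the 250 bases before each start were searched on both strands for CACCTG (the E-box form bound by Snail and Zeb repressors), AACNGGTT (the grainyhead-like motif) and TGANTCA (the AP-1 motif). CACCTG was in 5 of 11 promoters of Rab genes lower in EpCAM- cells, in 2 of 14 promoters of those higher, in 2 of 29 promoters of those not called and in 17.2% of all 32851 mouse promoters. The promoters below are those of Rab25, Rab27a and Rab17, which with Rab19 fell most, and, for contrast, those of Rab11a, the close relative of Rab25 that was not called, and Rab31, which rose most. Rab19 is not shown because most of its window lies in annotated exons. Exon bases were left out, so the letters, 5′ to 3′ on the gene's strand, stop 21 bases before the start in Rab25 and 2 bases before it in Rab11a and run up to it in the others, and capitals mark CACCTG, on either strand, and the grainyhead-like motif.
Rab25, chr3:88548301-88548529, minus strand: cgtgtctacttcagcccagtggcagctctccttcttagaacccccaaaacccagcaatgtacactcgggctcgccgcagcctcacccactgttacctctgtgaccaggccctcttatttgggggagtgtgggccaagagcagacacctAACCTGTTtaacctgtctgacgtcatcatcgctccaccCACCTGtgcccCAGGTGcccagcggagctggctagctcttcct
Rab27a, first start, chr9:73044560-73044809, plus strand: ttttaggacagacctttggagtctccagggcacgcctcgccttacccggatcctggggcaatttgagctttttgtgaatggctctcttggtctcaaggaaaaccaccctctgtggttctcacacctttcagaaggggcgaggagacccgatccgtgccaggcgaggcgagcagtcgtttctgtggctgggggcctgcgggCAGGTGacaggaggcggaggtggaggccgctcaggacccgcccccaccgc
Rab17, chr1:90967668-90967917, minus strand: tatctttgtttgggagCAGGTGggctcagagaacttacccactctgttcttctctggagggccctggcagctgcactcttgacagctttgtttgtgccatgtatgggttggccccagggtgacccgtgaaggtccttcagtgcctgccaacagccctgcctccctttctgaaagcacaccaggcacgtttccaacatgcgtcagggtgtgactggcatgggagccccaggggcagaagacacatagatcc
Rab11a, chr9:64737759-64738006, minus strand: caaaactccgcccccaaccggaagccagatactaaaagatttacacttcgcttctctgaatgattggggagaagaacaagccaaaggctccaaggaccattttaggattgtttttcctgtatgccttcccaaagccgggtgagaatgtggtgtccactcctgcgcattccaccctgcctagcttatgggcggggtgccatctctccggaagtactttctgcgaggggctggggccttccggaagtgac
Rab31, chr17:65772753-65773002, minus strand: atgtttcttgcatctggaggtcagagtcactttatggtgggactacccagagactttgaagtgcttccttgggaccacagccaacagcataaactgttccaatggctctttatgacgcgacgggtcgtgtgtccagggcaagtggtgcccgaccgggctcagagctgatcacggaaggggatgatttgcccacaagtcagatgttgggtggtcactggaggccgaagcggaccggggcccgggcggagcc
The Rab25 window held CACCTG at 64 and 53 bases before the start and the only AACNGGTT among the Rab promoters, at 102 bases before it, where 1.79% of all promoters hold that motif. In Rab27a the match lay 50 bases before the first start, and the window of its later start, not shown, held none. In Rab17 it lay 234 bases before the start, and the promoters of Rab19 and Rab9 held it at 55 and 198 bases. The Rab19 match lies within the 178 bases of its window that annotated exons cover. Among higher genes it was in Rab3a, 84 bases before a start, and in Rab23, at 207 and 19 bases. Among genes not called it was in Rab5c and Rab15. Promoters of these genes are not shown, and those shown for contrast hold no CACCTG. The AP-1 letters were in 2 Rab promoters, Rab34 and Rab15, and in 6.75% of all promoters. A match is a match of letters only, and no binding was measured.

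The most abundant Rab genes were largely the same in both groups. Per kilobase of exon, Rab7 of late endosomes led with a mean back-transformed level of 2701 in EpCAM+ and 3163 in EpCAM- cells, followed by Rab2a of the Golgi at 2398 and 2494. Rab7 was the higher of these in every library. In EpCAM+ cells Rab10, Rab5c and Rab1a came next, at 1715, 1688 and 1620 per kilobase. In EpCAM- cells Rab5c, Rab10 and Rab31 came next, at 1799, 1788 and 1460 per kilobase, with Rab1a at 1446 close behind. The library values of Rab10, Rab5c and Rab1a overlapped in EpCAM+ cells, as did those of Rab5c with Rab10 and of Rab31 with Rab1a in EpCAM- cells, so the order within these sets is not firm. Rab31, at 403.3 per kilobase in EpCAM+ cells, was the one gene to join the 5 highest.

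Rab genes of recycling and polarised delivery went in both directions. Of the 11 tested, 54.5% were called, against 43.4% of all tested genes. In this group 3 fell (Rab25, Rab17 and Rab8a), 3 rose (Rab8b, Rab13 and Rab12) and 5 were not called. Per kilobase of exon, these genes made up 25.0% to 26.2% of the summed Rab level in EpCAM+ libraries and 21.6% to 22.6% in EpCAM- libraries. Rab25 is part of that share, at 949.6 per kilobase in EpCAM+ and 12.1 in EpCAM- cells. The smaller share is therefore largely that of Rab25 and not of the group.

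Rab25, an epithelial relative of Rab11 that serves apical recycling (ENSMUSG00000008601, GRCm38 chromosome 3, 88542029 to 88548300), had levels of 10.66, 10.58 and 10.66 in EpCAM+ replicates 1 to 3 and of 4.86, 4.27 and 3.63 in EpCAM- replicates 1 to 3. The groups were far apart, by 83.3-fold on the back-transformed scale (log2 difference -6.38 ± 0.30 SE, limma adjusted p = 1.09e-05). It went from rank 8 of the 59 Rab genes per kilobase of exon in EpCAM+ cells (back-transformed level 949.6 per kilobase) to rank 45 in EpCAM- cells (12.1 per kilobase). Rab11a, which marks the recycling endosome in most cells, lay at 11.82, 11.61 and 11.60 in EpCAM+ and 11.59, 11.26 and 11.53 in EpCAM- libraries. Its difference of -0.22 (95% interval -0.51 to 0.08, limma adjusted p = 0.201) was not called, although the groups did not overlap. Rab11b gave -0.18 (95% interval -0.42 to 0.05, adjusted p = 0.175 in limma). Both intervals lie far from the Rab25 difference.

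Rab17, known from transcytosis in polarised epithelial cells (chromosome 1, 90958133 to 90969661), was a low-level gene at 5.04, 5.35 and 5.51 in EpCAM+ and 2.56, 2.80 and 2.89 in EpCAM- libraries. Every EpCAM- library was lower, by 5.86-fold (log2 difference -2.55 ± 0.22 SE, limma adjusted p = 0.000137). The EpCAM- values of Rab17 lie within the range of the genes under the filter, whose highest value was 3.51. It passed the filter through its EpCAM+ values, so the size of its fall is uncertain. Over the alternatives that tested it, the difference was -2.75 to -1.92.

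The Rab8 pair, which delivers membrane to the surface and to cilia, moved in opposite directions. Rab8a (chromosome 8, 72161200 to 72183904) lay at 11.00, 10.96 and 10.97 in EpCAM+ and 10.66, 10.50 and 10.61 in EpCAM- libraries, a small fall of 0.39 ± 0.090 SE (limma adjusted p = 0.0118). Rab8b (chromosome 9, 66843664 to 66919687) lay at 8.66, 8.15 and 8.57 in EpCAM+ and 9.96, 10.09 and 9.92 in EpCAM- libraries, 2.89-fold higher (log2 difference 1.53 ± 0.16 SE, limma adjusted p = 0.000328). The groups did not overlap for either gene. Rab8a stayed the more abundant of the pair per kilobase of exon in each library.

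Rab13, which acts at tight junctions, rose from 8.18 to 8.37 in EpCAM+ to 8.82 to 9.03 in EpCAM- libraries (log2 difference 0.66 ± 0.13 SE, limma adjusted p = 0.00532), in the opposite direction to the epithelial markers. Its close relative Rab10, which serves exocytosis in many cell types, was not called (0.06, 95% interval -0.18 to 0.30). Rab12, which sends transferrin receptor to lysosomes, was called at 0.39 ± 0.11 SE (limma adjusted p = 0.026), but with single libraries left out its adjusted p ran from 0.0282 to 0.0955 and the call was lost in 4 of 6 fits (EpCAM+ replicate 1, 2 or 3 or EpCAM- replicate 2 left out). Rab35, an endocytic recycling gene, differed by 0.02 (95% interval -0.25 to 0.30) and Rab15 by 0.42 (95% interval -0.45 to 1.29).

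Most called Rab genes of regulated secretion were lower in EpCAM- cells. Of the 6 tested, 66.7% were called, against 43.4% of all tested genes. Rab27a, Rab3d and Rab27b fell, Rab3a was called higher and Rab3b and Rab26 were not called. Their share of the summed Rab level per kilobase was 3.68% to 4.69% in EpCAM+ and 1.63% to 1.97% in EpCAM- libraries, with no overlap. Summed acinar and islet markers, whose cells hold secretory granules, fell with them, and their part in these decreases was not tested.

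Rab27a, which docks secretory granules and multivesicular endosomes at the plasma membrane (chromosome 9, 73044854 to 73097629), stood at 8.80, 8.23 and 8.84 in EpCAM+ and 5.64, 5.55 and 5.16 in EpCAM- libraries. All EpCAM- libraries were lower, by 9.03-fold (log2 difference -3.17 ± 0.24 SE, limma adjusted p = 7.09e-05). Rab27b, its relative on secretory granules of exocrine cells (chromosome 18, 69979131 to 70141605), stood at 11.21, 11.13 and 11.29 in EpCAM+ and 9.85, 9.27 and 10.42 in EpCAM- libraries. It fell less and with more spread in EpCAM- cells (log2 difference -1.36 ± 0.27 SE, limma adjusted p = 0.00586).

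Rab3d, the main Rab3 of exocrine secretory granules (chromosome 9, 21907491 to 21918192), had levels of 11.33, 11.17 and 11.45 in EpCAM+ and 9.85, 9.95 and 9.88 in EpCAM- libraries. The EpCAM- values were tightly grouped and 2.68-fold lower (log2 difference -1.42 ± 0.11 SE, limma adjusted p = 7.24e-05). Rab3a, best known from synaptic vesicles, lay at 6.77, 6.54 and 6.64 in EpCAM+ and 7.10, 7.19 and 7.10 in EpCAM- libraries, a difference of 0.48 ± 0.16 SE just past the threshold (limma adjusted p = 0.047). That call was lost whichever single library was left out, with adjusted p between 0.0634 and 0.137. Rab3b (-0.16, 95% interval -0.88 to 0.55) and Rab26, a secretory granule Rab (0.48, 95% interval -0.10 to 1.06), were not called. Rab26 passed only after quantile normalisation among the alternatives run (limma adjusted p = 0.0218).

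**Figure D2:**
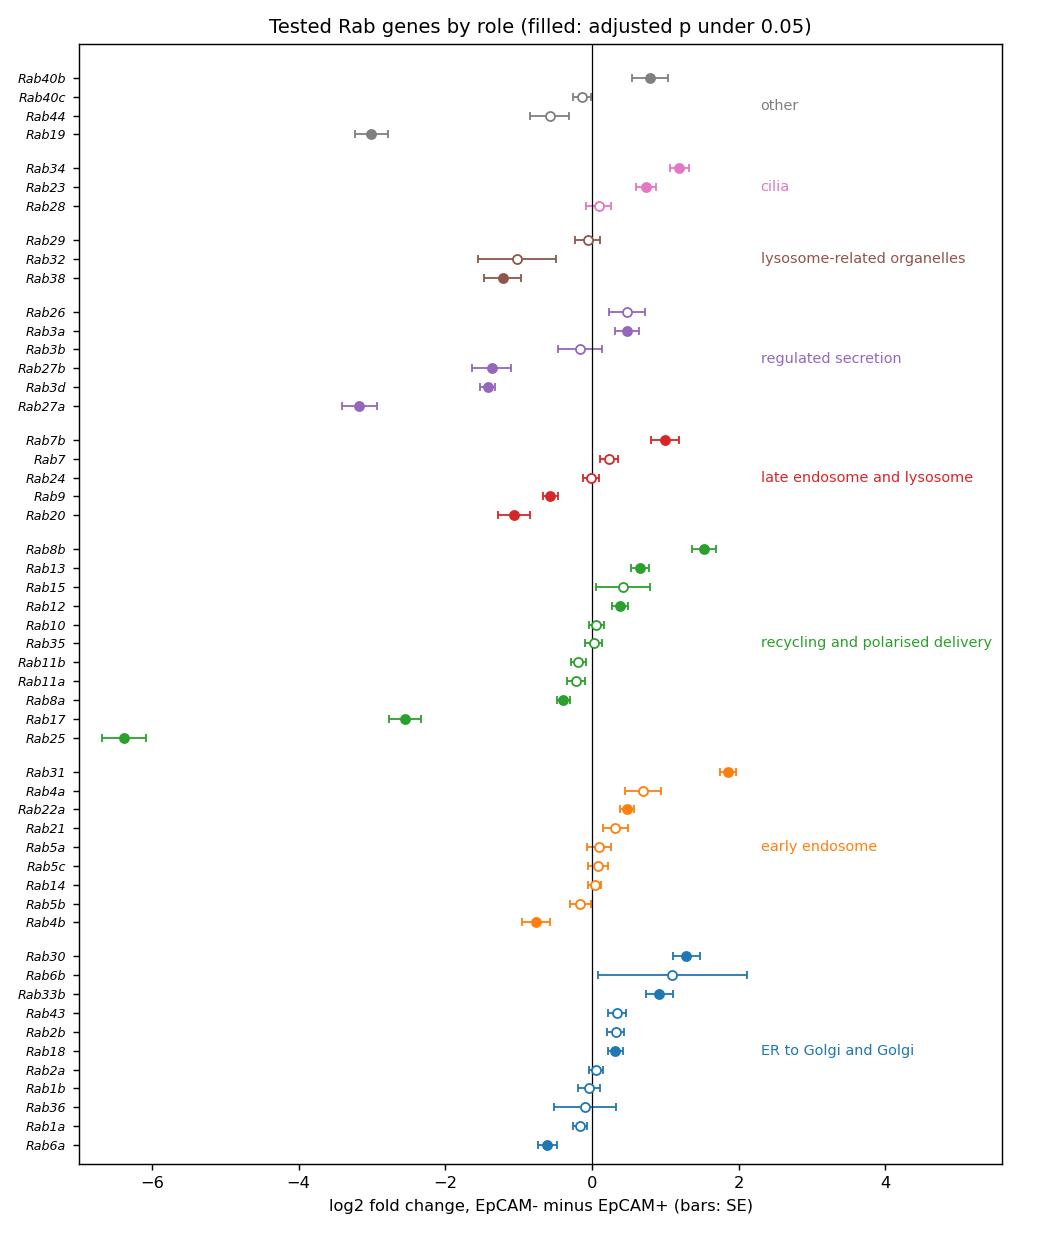
Log2 difference, EpCAM- minus EpCAM+ (horizontal axis), of the 52 tested Rab genes arranged by role, with the SE from limma as bars, filled points for called genes and open points for the others. Recycling and regulated secretion hold both deep decreases, Rab25 at -6.38 and Rab27a at -3.17, and called increases, Rab8b at 1.53 and Rab3a at 0.48.

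Among early endosomal Rab genes Rab31 had the largest difference. Of 9 tested, Rab31 and Rab22a rose, Rab4b fell and 6 were not called, 33.3% called against 43.4% of all tested genes. The share of the group in the summed Rab level per kilobase went from 19.5% to 20.5% in EpCAM+ to 23.5% to 25.8% in EpCAM- libraries. Rab31 alone held 1.65% of that sum in EpCAM+ and 5.95% in EpCAM- cells, so the larger share is largely that of Rab31. Rab5a, Rab5b and Rab5c, the core genes of early endosome fusion, gave differences of 0.09, -0.16 and 0.08, with 95% intervals that together span -0.49 to 0.48.

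Rab31, which works between the Golgi and endosomes and in sorting of growth factor receptors (chromosome 17, 65651729 to 65772752), lay at 10.72, 10.43 and 10.60 in EpCAM+ and 12.56, 12.35 and 12.40 in EpCAM- libraries. It was the most increased Rab gene, 3.63-fold (log2 difference 1.86 ± 0.11 SE, limma adjusted p = 3.04e-05), and its rank per kilobase among the 59 went from 19 to 5. Fibroblast markers were higher in the same libraries, and their part in the rise was not tested. In EpCAM- replicates 1 to 3 they took 0.337%, 0.264% and 0.0622% of the total. Over all alternatives run, the fit without EpCAM- replicate 3 and EpCAM+ replicate 1 among them, the difference was 1.78 to 1.94. That fit leaves out the EpCAM- library with the lowest and the EpCAM+ library with the highest fibroblast share, so it does not test the part of these markers. Rab22a, the closest relative of Rab31 and a gene of endosomal recycling, rose less, from 11.00 to 11.19 in EpCAM+ to 11.51 to 11.64 in EpCAM- libraries (log2 difference 0.48 ± 0.097 SE, limma adjusted p = 0.00707).

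The Rab4 pair, which returns receptors quickly from early endosomes to the surface, diverged. Rab4b lay at 9.77, 9.62 and 9.68 in EpCAM+ and 9.34, 8.82 and 8.64 in EpCAM- libraries, a fall of 0.76 ± 0.19 SE (limma adjusted p = 0.0157) that was lost without EpCAM+ replicate 1 or 3 (highest adjusted p 0.0541). Rab4b shares 65.0% of its exon bases with the same-strand gene Gm21983, so its level is uncertain. Rab4a lay at 7.27, 7.02 and 7.80 in EpCAM+ and 7.92, 7.90 and 8.36 in EpCAM- libraries. These groups did not overlap, but the difference of 0.69 ± 0.24 SE did not pass (limma adjusted p = 0.0561). It passed in some alternatives, such as the fit without EpCAM+ replicate 3 (limma adjusted p = 0.0286) and that after quantile normalisation (limma adjusted p = 0.0183). Rab14, which links Golgi and endosomes, differed by 0.04 (95% interval -0.17 to 0.25). Rab21, known from integrin traffic, differed by 0.32 (95% interval -0.08 to 0.72) and was called (limma adjusted p = 0.0391) only in the fit without EpCAM- replicate 3 among those that leave out a single library.

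Among late endosomal and lysosomal Rab genes, Rab20 and Rab9 fell, Rab7b rose, and Rab7 and Rab24 were not called. Rab7, the central gene of this route, was the highest Rab gene per kilobase of exon in both groups. Its difference of 0.23 (95% interval -0.05 to 0.52, limma adjusted p = 0.163) did not pass. Rab7b, which returns cargo from endosomes to the Golgi, stood at 7.54, 7.38 and 7.20 in EpCAM+ and 8.25, 8.17 and 8.69 in EpCAM- libraries (log2 difference 1.00 ± 0.19 SE, limma adjusted p = 0.00531). The groups did not overlap. Rab9, which also works between late endosomes and the Golgi, went the other way, from 9.73 to 9.88 in EpCAM+ to 9.20 to 9.28 in EpCAM- libraries (log2 difference -0.57 ± 0.10 SE, limma adjusted p = 0.00381).

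Rab20, which acts in maturation of endosomes and phagosomes, lay at 8.43, 8.48 and 8.31 in EpCAM+ and 7.21, 7.80 and 7.03 in EpCAM- libraries (log2 difference -1.07 ± 0.22 SE, limma adjusted p = 0.00753). The EpCAM- libraries were all lower. An opposite-strand gene, E230013L22Rik, covers 25.6% of its exon bases, and the sources used here do not say whether counting used strand. Leukocyte markers also fell, and their part in this was not tested. Rab24, linked to autophagy, differed by -0.01 (95% interval -0.27 to 0.24), and 62.4% of its exon bases overlap Prelid1 on the opposite strand.

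Rab38 and Rab32 are the Rab genes of lysosome-related organelles such as melanosomes. In this group 1 of 3 tested genes was called, 33.3% against 43.4% of all tested genes. Rab38 stood at 7.44, 7.60 and 7.12 in EpCAM+ and 6.04, 5.86 and 6.62 in EpCAM- libraries, a fall of 1.22 ± 0.25 SE (limma adjusted p = 0.00785). The groups did not overlap. Leukocyte markers, which took 0.0149% to 0.0344% in EpCAM+ and 0.0024% to 0.0030% in EpCAM- libraries, fell too, and their part in this was not tested. Rab32 stood at 8.78, 8.42 and 8.68 in EpCAM+ and 8.12, 8.43 and 6.27 in EpCAM- libraries. Its mean difference of -1.02 (95% interval -2.27 to 0.24, limma adjusted p = 0.163) came mainly from EpCAM- replicate 3, without which it was -0.35. Rab29, a Golgi and lysosome gene, differed by -0.06 (95% interval -0.47 to 0.36).

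Rab genes grouped here under cilia rose in 2 of 3 cases, 66.7% called against 43.4% of all tested genes. The Rab8 pair, which also serves cilia, is counted under recycling. Rab34, required for cilium formation and also known from lysosome positioning (chromosome 11, 78188430 to 78192193), lay at 9.90, 9.94 and 9.60 in EpCAM+ and 11.08, 11.07 and 10.88 in EpCAM- libraries. It was 2.29-fold higher with no overlap (log2 difference 1.19 ± 0.13 SE, limma adjusted p = 0.000362), and its rank per kilobase went from 21 to 10. Rab23, a negative regulator of Hedgehog signalling, went from 8.02, 8.21 and 8.02 to 8.78, 8.99 and 8.69 (log2 difference 0.74 ± 0.14 SE, limma adjusted p = 0.00523). Fibroblast markers were higher in the same libraries, and their part in these rises was not tested. EpCAM- replicate 3 had the lowest share of them in its group and the lowest value of its group for both genes, 10.88 and 8.69. EpCAM- replicate 1 had the highest share in its group, at 11.08 for Rab34 and 8.78 for Rab23, the latter below the 8.99 of replicate 2. EpCAM+ replicate 1 had the highest share in its group but not its highest value for either gene, at 9.90 and 8.02. The groups did not overlap for Rab34 or Rab23. Rab28, known from photoreceptor cilia, differed by 0.09 (95% interval -0.31 to 0.50). The share of these 3 genes in the summed Rab level per kilobase went from 1.98% to 2.25% in EpCAM+ to 3.93% to 4.43% in EpCAM- libraries. Rab34 alone held 1.55% of that sum in EpCAM+ and 3.53% in EpCAM- cells.

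**Figure D3:**
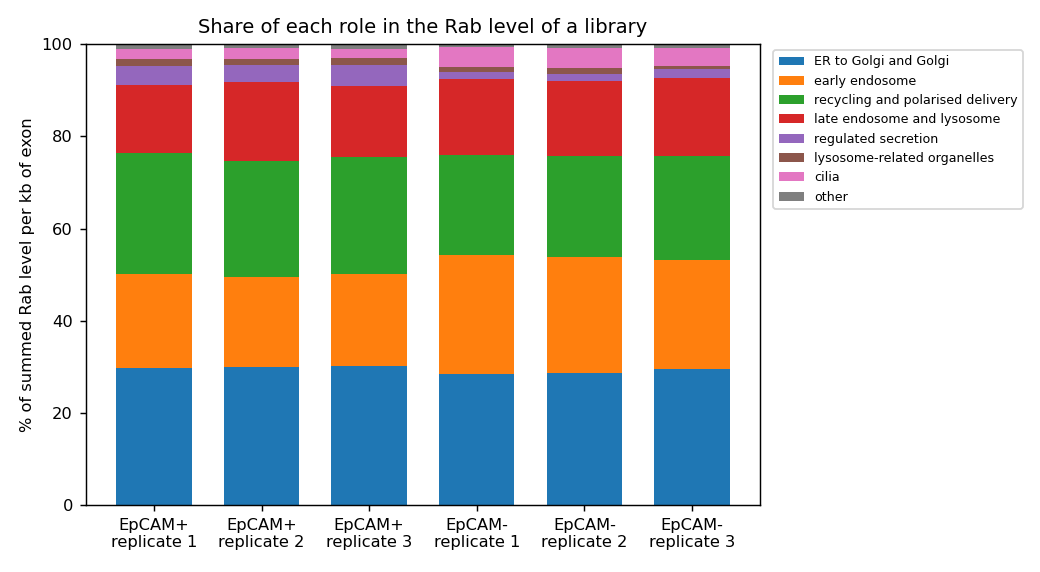
Share of each role (stacked colours) in the summed Rab level per kilobase of exon, in percent (vertical axis), for each of the 6 libraries. The cilia share is larger in EpCAM- libraries (3.93% to 4.43% against 1.98% to 2.25%) and the regulated secretion share smaller (1.63% to 1.97% against 3.68% to 4.69%), while ER to Golgi genes keep 28.6% to 30.1% in all.

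Rab genes of the secretory route from the endoplasmic reticulum (ER) through the Golgi held the largest share of the summed level, 29.7% to 30.1% in EpCAM+ and 28.6% to 29.6% in EpCAM- libraries. Of 11 tested, Rab30, Rab33b and Rab18 rose, Rab6a fell and 7 were not called, 36.4% called against 43.4% of all tested genes. The core genes moved little. Rab1a, which starts ER to Golgi transport, differed by -0.16 (95% interval -0.38 to 0.05), Rab1b by -0.04 (-0.39 to 0.32) and Rab2a, second among Rab genes per kilobase in both groups, by 0.06 (-0.16 to 0.27).

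Rab30, a Golgi gene, lay at 5.84, 6.28 and 5.96 in EpCAM+ and 7.40, 7.32 and 7.23 in EpCAM- libraries, 2.44-fold higher (log2 difference 1.29 ± 0.19 SE, limma adjusted p = 0.00156). Rab33b, a Golgi Rab that also binds an autophagy factor, lay at 8.45, 8.81 and 8.63 in EpCAM+ and 9.22, 9.82 and 9.61 in EpCAM- libraries (log2 difference 0.92 ± 0.19 SE, limma adjusted p = 0.00664). Neither gene overlapped between groups, and Rab33b shares 18.7% of its exon bases with an opposite-strand gene. Rab6a, which carries retrograde traffic at the Golgi, fell from 12.44, 12.47 and 12.25 to 11.99, 11.62 and 11.71 (log2 difference -0.61 ± 0.13 SE, limma adjusted p = 0.00872), and 19.0% of its exon bases overlap Mrpl48 on the opposite strand.

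Rab6b, the relative of Rab6a best known from neurons, lay at 4.89, 7.88 and 8.06 in EpCAM+ and 6.36, 8.83 and 8.93 in EpCAM- replicates 1 to 3. Replicate 1 was far below the other libraries in both groups, so the groups overlapped. The difference of 1.10 (95% interval -1.30 to 3.49, limma adjusted p = 0.418) was not called, and without EpCAM+ replicate 1 it was 0.072. The call changed in a fit with a term for the replicate number, given in the closing section, although the labels do not tell whether equal numbers mean a shared tumour. Rab18, known from lipid droplets and the ER, was called at 0.32 ± 0.10 SE (limma adjusted p = 0.0434), a call lost in 5 of 6 fits without a single library, all but that without EpCAM+ replicate 1, with adjusted p up to 0.147. Rab2b and Rab43 gave 0.32 (95% interval 0.05 to 0.60) and 0.34 (0.04 to 0.64) and were not called, with limma adjusted p of 0.0602 and 0.0658. Rab43 passed without EpCAM- replicate 3 (limma adjusted p = 0.0491). Overlapping genes cover 59.3% (Gm43766, opposite strand) and 75.4% (Gm45140, same strand) of their exon bases. Rab36 varied most among the rest, from 4.90 to 6.63 within EpCAM- cells, with a difference of -0.10 (95% interval -1.09 to 0.90).

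The remaining tested genes have less settled roles. Rab19 lay at 5.42, 5.45 and 5.95 in EpCAM+ and 2.51, 2.76 and 2.54 in EpCAM- libraries. It was the third most decreased Rab gene (8.03-fold, log2 difference -3.01 ± 0.23 SE, limma adjusted p = 7.67e-05). Its EpCAM- values lie within the range of the genes under the filter, whose highest value was 3.51. Rab19 passed the filter through its EpCAM+ values, so the size of its fall is uncertain. Over the alternatives that tested it, the difference was -3.10 to -2.28. Rab40b, whose protein carries a SOCS box that recruits a ubiquitin ligase, was low in all libraries, at 3.43, 3.32 and 2.97 in EpCAM+ and 3.68, 4.21 and 4.20 in EpCAM- cells. Its difference of 0.79 ± 0.24 SE (limma adjusted p = 0.0361) lost its call in 5 of 6 fits that left out a library, all but that without EpCAM- replicate 1, with adjusted p up to 0.119. Rab40c gave -0.13 (95% interval -0.41 to 0.14) and Rab44 -0.58 (95% interval -1.20 to 0.05), neither called.

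The 7 genes under the filter were Rab37, Rab3c, Rab33a, Rab39b, Rab9b, Rab39 and Rab42, with log2 values from -1.51 to 3.51 over all libraries. Rab37 had the highest of these, 3.51 in EpCAM+ replicate 1. Just inside the filter of a mean back-transformed level of 10 were Rab44 at 11.1 and Rab40b at 13.0, and just outside it Rab37 at 7.83 and Rab39b at 6.40.

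Related Rab genes were then compared within each library, which removes any scaling between libraries. Log2 ratios are differences of the deposited levels with no length correction, and are compared only between groups, while shares are per kilobase of exon. Of 26 pairs of close relatives, 20 had both genes tested, and for 13 of these the log2 ratio did not overlap between the groups. Among all tested genes, 56.3% did not overlap as single genes. No rate was computed for pairs of other genes, so the count is no result about Rab relatives. With 3 libraries against 3, the smallest p of the two-sided exact permutation test is 0.1, and adjusted over the 20 pairs it is 0.154, so no pair could pass and the ratios are given with their spread. The ratio of Rab11a to Rab25 was 1.16, 1.04 and 0.94 log2 units in EpCAM+ and 6.73, 6.99 and 7.90 in EpCAM- libraries. Rab25 made up 35.6% ± 1.3 (SD, n = 3) of the summed level of Rab11a, Rab11b and Rab25 per kilobase in EpCAM+ and 0.797% ± 0.30 (SD, n = 3) in EpCAM- cells. Its coding sequence is 65.5% identical to that of Rab11a and 70.8% to that of Rab11b over the aligned bases, below the 75.8% between Rab11a and Rab11b.

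Rab8b, 79.2% identical to Rab8a in coding sequence, went from 14.8% ± 2.1 to 39.5% ± 2.8 of the pair (SD, n = 3 per group). The log2 ratio of Rab8a to Rab8b was 2.35, 2.81 and 2.40 in EpCAM+ and 0.70, 0.41 and 0.69 in EpCAM- libraries, and per kilobase Rab8a held 57.3% or more of the pair in every library. Rab31 went from 56.8% ± 2.7 to 77.3% ± 2.1 of Rab22a plus Rab31, and Rab4a from 18.5% ± 4.2 to 38.2% ± 9.3 of the Rab4 pair (SD, n = 3 per group). Rab27a went the other way, from 31.5% ± 4.0 to 12.3% ± 5.3 of the Rab27 pair (SD, n = 3 per group). Within the Rab3 genes, Rab3d held 89.3% ± 1.5 in EpCAM+ and 72.2% ± 1.7 in EpCAM- cells, and Rab3a 6.65% ± 0.51 and 20.0% ± 0.63 (SD, n = 3 per group). The log2 ratio of Rab3a to Rab3d was the tightest in EpCAM- cells, at -2.75, -2.77 and -2.78, against -4.56, -4.62 and -4.81 in EpCAM+ cells. Ratios among Rab5a, Rab5b and Rab5c, between Rab1a and Rab1b and between Rab11a and Rab11b moved by at most 0.25 log2 units on average.

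**Figure D4:**
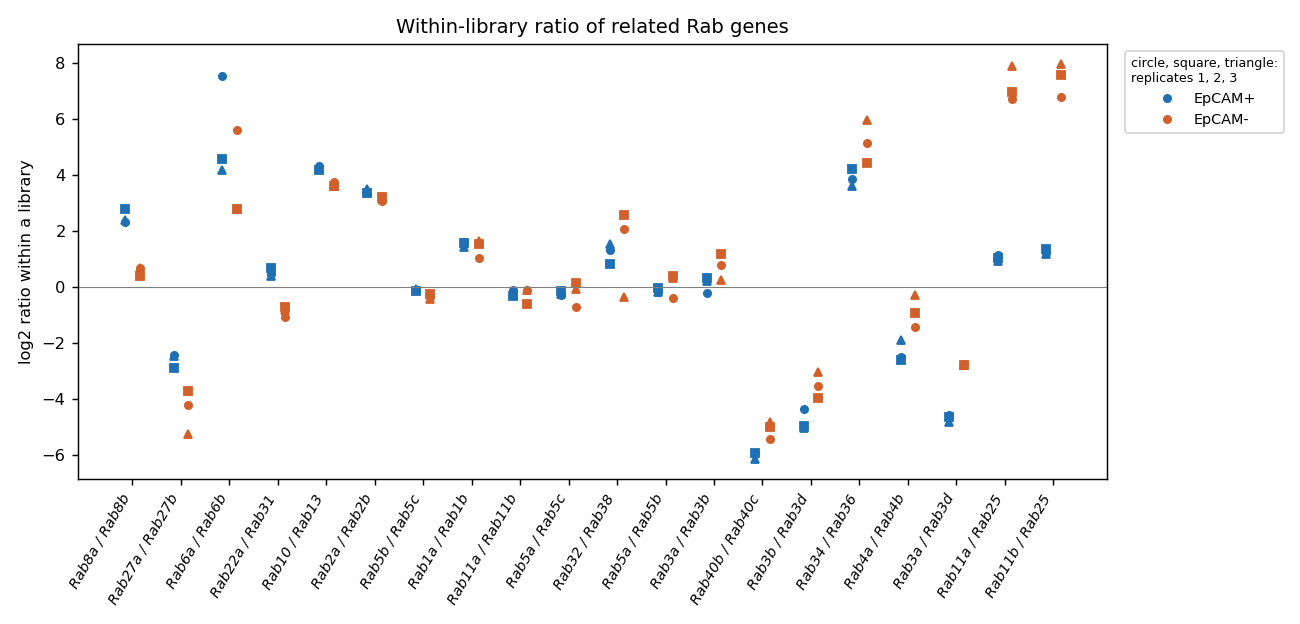
Log2 ratio of the first to the second gene of each tested pair of related Rab genes within a library (vertical axis), ordered by the change between groups, from the most negative on the left to the most positive on the right. Blue is EpCAM+ and orange EpCAM-, with a circle, square or triangle for replicates 1, 2 and 3, and the ratios of Rab11a and Rab11b to Rab25 move from about 1 to between 6.73 and 7.99.

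Genes that control or read Rab proteins were called at a similar rate to the Rab genes themselves. Across 7 lists with 122 genes, 119 were tested, 21 were higher and 34 lower in EpCAM- cells, 46.2% against 43.4% of all tested genes, and the median difference was -0.069. Without EpCAM+ replicate 1 and EpCAM- replicate 3, 11 were higher and 26 lower. Of all tested genes, 1907 were higher and 2462 lower in that fit.

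Effectors of Rab27 and Rab3 mostly fell. Of 11 tested, 6 fell and 1 rose, 63.6% called against 43.4% of all tested genes. The median difference of the list was -1.73, against 0.0043 for all tested genes. Exph5, a Rab27 effector in granule release, fell from 8.42, 8.63 and 8.62 in EpCAM+ to 4.06, 4.05 and 3.69 in EpCAM- libraries (log2 difference -4.62 ± 0.19 SE, limma adjusted p = 7.38e-06). The vesicle priming genes Unc13b (-3.31 ± 0.15 SE) and Unc13d (-2.73 ± 0.31 SE) and the synaptotagmin-like gene Sytl1 (-3.25 ± 0.22 SE) also fell. Sytl4, another synaptotagmin-like effector, was called higher, from 6.52 to 6.90 in EpCAM+ to 7.37 to 7.80 in EpCAM- libraries (log2 difference 0.78 ± 0.20 SE, limma adjusted p = 0.0178), but not in the fits without EpCAM+ replicate 2 or EpCAM- replicate 2, in which 0 genes of the list were called higher. Acinar and islet markers fell in the same libraries, and their part in this was not tested.

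Partners of Rab11 moved both ways. Among 8 Rab11 family interacting proteins and myosin V motors, 3 fell, 1 rose and 4 were not called. Over all tested genes 43.4% were called, so the count by itself is no result about this list. Rab11fip4 fell from 8.54, 8.87 and 9.09 to 4.36, 4.79 and 4.98 (log2 difference -4.12 ± 0.24 SE, limma adjusted p = 2.49e-05) and Rab11fip1 by 2.35 ± 0.14 SE (limma adjusted p = 2.53e-05). Myo5b, the motor of apical recycling endosomes, fell from 11.56, 11.94 and 11.70 to 8.84, 9.37 and 9.77 (log2 difference -2.40 ± 0.24 SE, limma adjusted p = 0.000257). Myo5a, the motor of melanosomes and other cargo, rose from 10.13, 9.91 and 10.16 to 12.16, 12.50 and 12.69 (log2 difference 2.38 ± 0.15 SE, limma adjusted p = 3.84e-05). Neither motor overlapped between the groups.

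Exchange factors numbered 34 tested genes, of which 5 rose and 9 fell, 41.2% called against 43.4% of all tested genes. The DENN-domain genes moved both ways: Dennd1c fell by 4.32 ± 0.25 SE and Dennd2d (-3.41 ± 0.19 SE) also fell, while Dennd2a rose from 9.15, 7.96 and 8.78 to 11.09, 11.75 and 11.05 (log2 difference 2.67 ± 0.33 SE, limma adjusted p = 0.000729). Als2cl, related to the Rab5 exchange factor alsin, fell by 2.70 ± 0.31 SE. Of 36 TBC-domain and other GTPase-activating proteins, 6 rose and 10 fell, 44.4% called against 43.4% of all tested genes. Among those called, Tbc1d30 (-4.62 ± 0.21 SE), Tbc1d2 (-2.56 ± 0.31 SE) and Sgsm3 (-1.90 ± 0.11 SE) were lowest and Tbc1d24 (1.59 ± 0.19 SE) and Evi5l (1.57 ± 0.13 SE) highest. The counts of higher genes changed with the library left out: 8 exchange factors were higher without EpCAM- replicate 1, and 3 GTPase-activating proteins without EpCAM+ replicate 3.

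Genes of the general Rab machinery were called in both directions. The shares called were 62.5% for inhibitors, escort and prenylation, 33.3% for the exocyst and 46.2% for endosomal effectors, against 43.4% of all tested genes. Of 8 genes for GDP dissociation inhibitors, escort and prenylation, 3 were called higher, among them the escort gene Chm (0.59 ± 0.13 SE) and its relative Chml (0.45 ± 0.13 SE), and Rabggta, a subunit of the Rab prenyltransferase (-0.53 ± 0.11 SE), and Rabac1 (-0.52 ± 0.16 SE) were lower, and none of the 8 reached a difference of 1. In the exocyst, the tethering complex for secretory vesicles, 1 of 9 subunits was called higher (Exoc5, 0.33 ± 0.085 SE) and 2 lower (Exoc6, -1.38 ± 0.15 SE, and Exoc1, -0.32 ± 0.11 SE). Of 13 endosomal effectors, Rilpl1 (1.46 ± 0.25 SE), Osbpl1a (1.12 ± 0.18 SE) and the Rab5 effectors Rbsn (0.55 ± 0.17 SE) and Appl1 (0.35 ± 0.11 SE) rose, and Appl2 (-0.89 ± 0.11 SE) and Rabep2 (-0.40 ± 0.12 SE) fell. Small calls in these lists were often lost when a library was left out, in fits that also have fewer samples. Of the 2 prenylation genes called lower, 1 was left in each fit without EpCAM+ replicate 1, 2 or 3 or EpCAM- replicate 2 or 3. In the exocyst, 0 subunits were higher without EpCAM+ replicate 1, 2 or 3 or EpCAM- replicate 3, and 1 was lower without EpCAM+ replicate 1, 2 or 3 or EpCAM- replicate 1 or 2. Of the endosomal effectors, 2 were higher without EpCAM+ replicate 1 or 3 or EpCAM- replicate 2 or 3, and 1 was lower without EpCAM+ replicate 1, 2 or 3 or EpCAM- replicate 3.

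**Figure D5:**
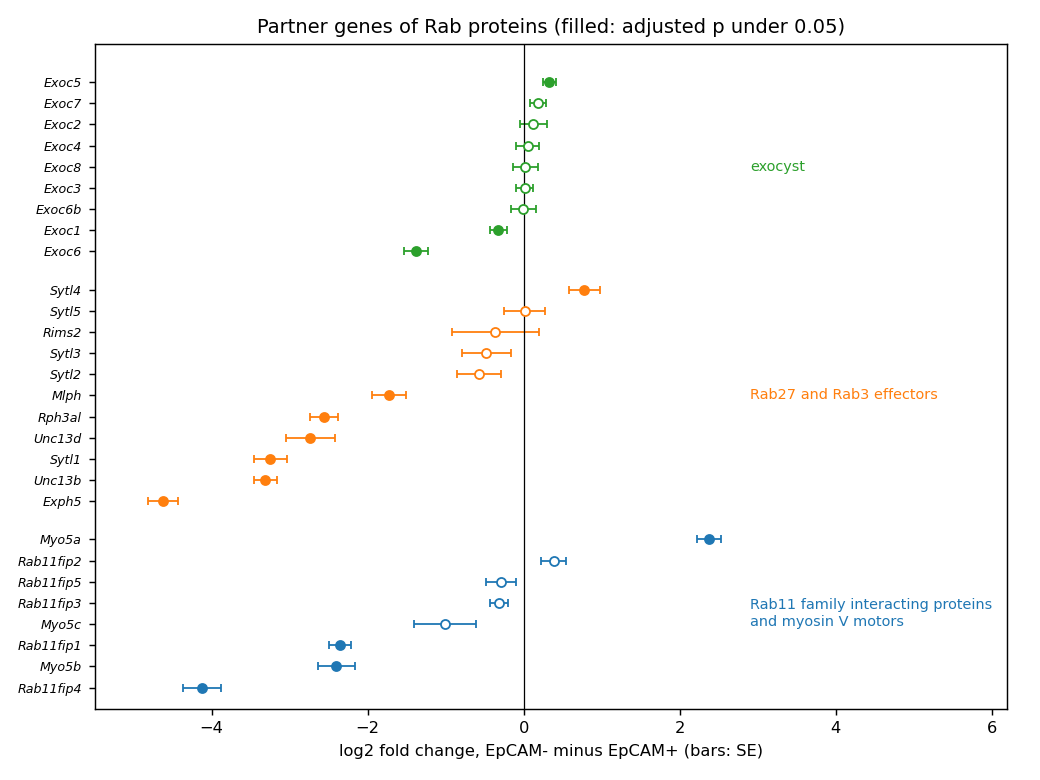
Log2 difference, EpCAM- minus EpCAM+ (horizontal axis), of the tested genes in 3 lists of Rab partners (vertical axis), with the SE from limma as bars, filled points for called genes and open points for the others. Rab27 and Rab3 effectors have 6 of 11 genes called lower, with Exph5 at -4.62, whereas 8 of 9 exocyst subunits lie within 0.5 of 0.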

How the data were processed

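RNA was extracted from sorted cells with a MagMAX-96 kit, prepared as KAPA mRNA HyperPrep libraries and read on an Illumina HiSeq machine, per the labels' protocols. The authors deposited log2 values that they had normalised across the libraries. The build GRCm38 and the tools RSEM, STAR 2.5.2 and DESeq2 1.24.0 are named, with no role or order, per the submitters' processing notes. The transform and the strand setting are not given in the sources here. Sequencing depth is unknown, so no interval that needs it is given.

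Symbols, coordinates and exon lengths came from GENCODE M21 by Ensembl identifier, which gave 25846 of 25978 genes a symbol. The deposited log2 values were tested as they are, although log2 of a value plus a pseudocount had been planned for linear values. A gene was tested if its back-transformed values averaged at least 10 (15783 genes). The groups were fitted together in limma 3.58.1 (R 4.3.3), using a mean-dependent prior variance and no covariate. P-values are two-sided, with Benjamini-Hochberg adjustment across the tested genes and a threshold of 0.05. "Called" means past that threshold. Levels of different genes were ranked, and shares taken, per kilobase of exon after back-transformation, while log2 ratios of related genes have no length correction. Coding sequences were aligned with Biopython 1.88. The fit was checked on simulated data.

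The Rab genes, role groups, partner lists and tests were chosen with earlier results of these data known. The text names up to 12 called Rab genes with the largest differences in each direction, their close relatives, the 4 smallest differences, and up to 4 called genes of each partner list. Further Rab genes are named to account for every member, and Chml, Appl1 and Rabep2 were named after their values were seen, to complete counts. Some items that the labels or this rule name are not reported here. Alternatives were no filter, a filter at 50, pseudocounts of 1 and 5, scaling by the TMM formula, quantile normalisation, a term for the replicate number, and fits with libraries left out. The series calls the libraries biological replicates, but the labels do not tell whether equal numbers mean a shared tumour, so p-values reflect only how these samples vary, which may be technical.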

Additional observations from a re-analysis of the deposited data

How the results depend on the processing

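Under every alternative in which they were tested, 13 Rab genes stayed past the threshold in the same direction: Rab31, Rab8b, Rab30, Rab34, Rab7b and Rab23 (higher) and Rab25, Rab27a, Rab19, Rab17, Rab3d, Rab27b and Rab38 (lower). With a filter at 50, Rab17, Rab19, Rab40b, Rab26 and Rab44 were not tested. With 1 library left out in turn, 2134 to 3325 genes were higher and 2853 to 3975 lower over the whole table, 9 to 12 and 11 to 12 among the Rab genes, and 14 to 23 and 27 to 33 among the partner genes. Without EpCAM+ replicate 1 and EpCAM- replicate 3 together, a fit with fewer samples, 1907 genes were higher and 2462 lower in the whole table. Of the Rab genes 6 were higher and 7 lower, and of the partner genes 11 were higher and 26 lower. Quantile normalisation moved the median difference of all tested genes from 0.0043 to 0.131. With it 4188 genes were higher and 3261 lower in the whole table, and 16 and 12 among the Rab genes. Rab4a (limma adjusted p = 0.0183), Rab2b (limma adjusted p = 0.0189), Rab43 (limma adjusted p = 0.0308) and Rab26 (limma adjusted p = 0.0218) gained a call, Rab18 (limma adjusted p = 0.0624) lost it, and the sign changed for Rab3b (0.20), Rab36 (0.27), Rab29 (0.28), Rab14 (-0.010), Rab24 (0.080) and Rab2a (-0.00017). With 1 library left out, or with the pair of libraries above left out, the sign was not fixed for Rab3b (-0.39 to 0.063), Rab24 (-0.073 to 0.024), Rab1b (-0.19 to 0.051, and 0.045 without the pair), Rab29 (-0.16 to 0.032), Rab35 (-0.053 to 0.14), Rab5b (-0.26 to 0.028), Rab5c (-0.030 to 0.18), Rab28 (-0.058 to 0.29), Rab5a (-0.077 to 0.23), Rab36 (-0.50 to 0.43) and Rab6b (-0.37 to 1.94). None of these genes was called with all libraries. Without a filter, Rab3a (limma adjusted p = 0.0592) and Rab18 (limma adjusted p = 0.0759) were not called. Beyond the smaller number of samples or the larger number of genes tested, the cause of these changes was not tested.

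Whether replicate numbers pair the libraries was checked from the correlation of deviations from the group means, which was 0.41, 0.044 and 0.16 for numbers 1, 2 and 3, and EpCAM+ replicate 2 correlated best with EpCAM- replicate 3 (0.23). The numbers were therefore not taken as pairs. With the replicate number as a block, 3365 genes were higher and 3725 lower in the whole table, and 47 of 52 Rab genes kept their side of the threshold. In that fit Rab4a (limma adjusted p = 0.0203) and Rab6b (limma adjusted p = 0.00813) were called. Rab40b (limma adjusted p = 0.0557), Rab3a (limma adjusted p = 0.0857) and Rab18 (limma adjusted p = 0.0568) were not.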
